A study of Homo sapiens with 12 samples.

Results

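Frame-preserving cassette exons were examined in A549 cells, a human lung adenocarcinoma line. A cassette exon can be kept in the mature mRNA or skipped with both of its flanking introns, and a length divisible by 3 keeps the codons on either side in the same reading frame in both forms. The exons were taken by rule from the authors' rMATS table of skipped exons: 28 to 300 nt long, a length divisible by 3, and at least 20 reads of the inclusion and skipping forms together in each of the 6 libraries of a comparison. This gave 30080 events, formed by 20674 distinct exons of 7859 genes, that were measured in at least 1 of 4 comparisons, out of 79782 events of any exon length with the same read minimum and 96833 events in the table. An event is a cassette exon with its upstream and downstream neighbour exons, so an exon with several possible neighbours appears in several events that share its reads. By comparison, 21036 of 54944 events passed for Cisplatin in control cells, 20953 of 55799 for Cisplatin in depleted cells, 21461 of 55585 for depletion in untreated cells and 20589 of 55338 for depletion in Cisplatin-treated cells.

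Lentivirus had delivered either shControl, a control shRNA, or shRNF113A, which targets RNF113A. All cells, the controls included, carried a vector and had been selected with puromycin. Cells of each kind were left untreated or received Cisplatin at 25 µg/ml for 20 h, as the sample labels give it. The study's text gives the dose of its other Cisplatin experiments in µM, so the unit of the dose is uncertain here. Each of the 4 conditions had 3 biological replicates, 12 libraries in all, and the comparisons asked how exon inclusion responded to Cisplatin in each genotype and to RNF113A depletion under each treatment. The inclusion level is the number of reads of the inclusion form divided by the length over which they can fall, in percent of the sum of that quantity over both forms. The table does not name the order of its 3 libraries per condition, so they are called a, b and c. The reads of both forms were compared between conditions by the quasi-likelihood test of edgeR. Its p-values were adjusted over all cassette exon events tested, of any length, and every adjusted p below is of this test unless another tool is named. The log2 change given beside it is that of the ratio of inclusion to skipping reads, with its standard error (SE).

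During splicing the spliceosome recognises the 5′ splice site at the end of an exon, the branch point and the pyrimidine-rich 3′ splice site in front of the next exon, and weak sites are where inclusion is most often regulated. RNF113A is a RING-type E3 ubiquitin ligase and a component of the activated spliceosome, and Cisplatin forms platinum crosslinks in DNA that block replication and transcription. A frame-preserving exon adds or removes a stretch of amino acids when it lies in coding sequence, whereas exons that bring an in-frame stop codon send the transcript to nonsense-mediated decay, which many genes of splicing factors use to limit their own expression.

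The splice sites of 8 exons described below are shown. These are the exons of PPIP5K2, ECT2 and TJP1 for Cisplatin and of TMBIM6, TAPBP, FYB and IVNS1ABP for depletion. The last, of PKM, was chosen after its values were seen. Whether the bases of these sites bear on inclusion was not tested. Each 3′ window holds the last 20 bases of the intron and the first 3 of the exon, each 5′ window the last 3 bases of the exon and the first 6 of the intron, and capitals mark the exon. They were read from the GRCh37 (hg19) genome on the strand of the gene, and the coordinates are those of the exon.
PPIP5K2, chr5:102518935-102519108, plus strand, 3′ splice site: gccccctttctcacttccagGAA
PPIP5K2, 5′ splice site: CAGgttttt
ECT2, chr3:172473273-172473365, plus strand, 3′ splice site: cttaagtctcttttccacagACT
ECT2, 5′ splice site: ATGgtaggt
TJP1, chr15:30011981-30012220, minus strand, 3′ splice site: atattttaaacacttcacagAAA
TJP1, 5′ splice site: AAGgtacct
TMBIM6, chr12:50135740-50135898, plus strand, 3′ splice site: ttctcctctactaagtgtagACG
TMBIM6, 5′ splice site: GAGgtaggg
TAPBP, chr6:33271905-33271994, minus strand, 3′ splice site: tcaccccttctgcctgccagGTC
TAPBP, 5′ splice site: CTGgtaagt
FYB, chr5:39126100-39126237, minus strand, 3′ splice site: aatgcctgcatgctccaaagCTC
FYB, 5′ splice site: ATCgtaaga
IVNS1ABP, chr1:185275617-185275757, minus strand, 3′ splice site: attgatttatctccccatagGTT
IVNS1ABP, 5′ splice site: ATGgtgttt
PKM, chr15:72513509-72513625, minus strand, 3′ splice site: tttccttaatccttgtgcagCTC
PKM, 5′ splice site: AAGgtatga

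The targeted gene was examined first. Expression is given in CPM, the read pairs of a gene scaled to the library's total over the genes tested, adjusted by TMM scaling. RNF113A had 19.5 to 20.3 CPM in the 3 untreated control libraries and 15.3 to 16.8 in the 3 untreated depleted libraries, with no overlap. The log2 fold change was -0.31 (SE 0.0920, adjusted p = 0.0247). This call was lost in 4 of 6 fits that left out 1 replicate, without replicates 1 or 3 of untreated control or 1 or 2 of untreated depleted cells (adjusted p up to 0.0940). With Cisplatin it had 27.7 to 31.5 CPM in control and 24.3 to 29.9 in depleted libraries, which overlapped, and the difference did not pass the test (log2 fold change -0.14, SE 0.0907, adjusted p = 0.233). The difference in RNF113A mRNA was small without Cisplatin and not detectable with it. The study examined RNF113A protein in depleted A549 cells by western blot, which these counts do not measure. The epithelial keratins KRT8 and KRT18 lay between 1402 and 7450 CPM in every library. EPCAM, an epithelial adhesion protein, was at 3.66 to 18.4 CPM in control and 40.5 to 97.6 CPM in depleted libraries, and NKX2-1, a lung lineage factor, reached 0.587 CPM. SFTPB, PTPRC of leukocytes and PECAM1 of endothelium were below the filter, and COL1A1 of fibroblasts lay between 3.32 and 34.9 CPM. Libraries held 33859097 to 56071514 read pairs, those of Cisplatin-treated depleted cells being the 3 smallest and having 21.8% to 22.6% of read pairs outside genes against 14.0% to 18.9% elsewhere. In gene expression, replicate 2 of both control conditions stood apart from its group (r of 0.968 to 0.976 with the other replicates, against 0.992 to 0.998 within the depleted conditions).

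Most frame-preserving cassette exons were included nearly always. Among the 15578 events with at least 20 reads in all 12 libraries, the median inclusion level in untreated control cells was 99.0%, with 79.0% of events above 90%, 10.6% between 10% and 90%, and 10.5% below 10%. Levels followed the annotation of the exon (Gencode): the median was 99.2% for exons wholly inside coding sequence, 36.1% for exons of untranslated regions, 69.4% for exons of other noncoding transcripts, and 3.92% for exons found only in transcripts annotated as targets of nonsense-mediated decay. Wholly coding exons made up 85.0% of the 30080 events against 78.7% of frame-shifting events of the same lengths, and exons of decay transcripts 3.77% against 5.78%. The median exon was 114 nt long, and 98.9% of exons had the canonical GT and AG at the intron ends. At the edges of the rule, exons of 27 nt, which the rule left out, had a median level of 85.3% (71 events) and those of 30 nt, which it took, 98.5% (84 events). Exons of 300 nt and 303 nt were at 99.2% and 99.1%, and events with 19 and 20 reads in the shallowest library at 93.9% and 92.5%.

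Exons at intermediate levels were more frequent in depleted than in control libraries. The share of frame-preserving events included at 10% to 90% was 10.8% to 11.1% in the 3 untreated control libraries, 10.7% to 10.98% in the 3 control libraries with Cisplatin, 11.9% to 12.3% in untreated depleted libraries and 12.4% to 13.3% in depleted libraries with Cisplatin. All 6 depleted libraries lay above all 6 control libraries, and among depleted libraries those with Cisplatin lay above those without. These shares were looked at after the values were seen and were not tested. Frame-shifting exons of 28 to 300 nt lay lower and had the same order, with 8.25% to 8.82% in untreated control and 10.5% to 11.2% in Cisplatin-treated depleted libraries. The libraries with the highest shares were also the smallest and had the most read pairs outside genes; the part of these in the shares was not tested.

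**Figure D1:**
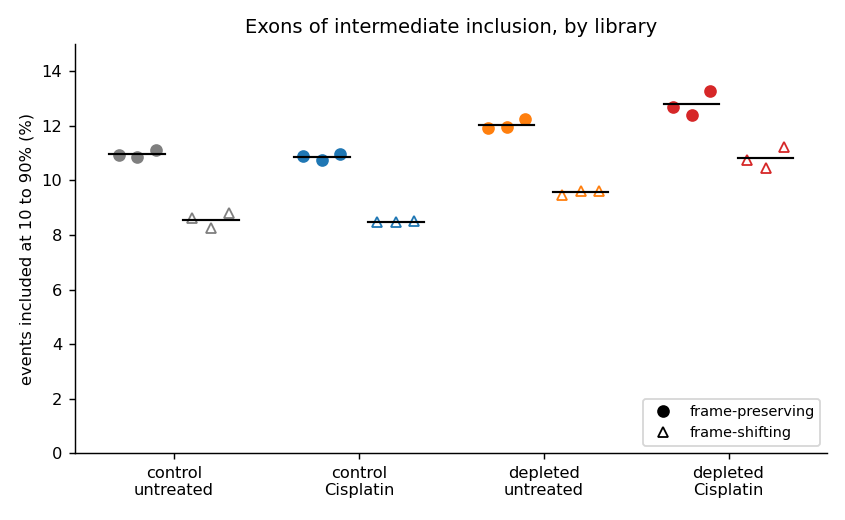
Share of cassette exon events, in percent of the events with at least 20 reads in all 12 libraries, that were included at 10% to 90% in each library of the 4 conditions. Filled circles are frame-preserving and open triangles frame-shifting exons of 28 to 300 nt, and lines are condition means; frame-preserving exons lie between 10.7% and 11.1% in control libraries and between 11.9% and 13.3% in depleted libraries.

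In control cells, Cisplatin changed the inclusion of 67 of 21036 frame-preserving events (0.319%) at an adjusted p under 0.05, against 0.351% of all cassette exon events tested. They lay in 65 exons of 64 genes: 52 rose (background of all events 0.260%) and 15 fell (background 0.0910%). Of these, 7 differed by at least 20 percentage points (background 0.0637%), with 4 higher (background 0.0346%) and 3 lower (background 0.0291%), and 28 differed by at least 10 points (background 0.147%). Of the 28, 19 were higher (background 0.0946%) and 9 lower (background 0.0528%). Of the 52 events that rose, 40 were included at under 10% in untreated cells, as were 1868 of the 21036 tested. The named exons that rose most belonged to PPIP5K2, SNHG17, COQ3, DAG1 and CENPL, and those that fell most to REPIN1, ECT2, MPRIP, KTN1 and TJP1. Exons were named if each library held 50 or more reads and the levels of the 2 conditions were apart, so that separation is a property of the rule and not a result. Of overlapping exons of a gene, only the event with the most reads was kept. That step left out an event of PKM, described below, which rose by 50.7 points. The calls depended on the tool: DESeq2 called 3 of the 21036 events and limma none, with 1149 at an unadjusted p under 0.05 in edgeR, and 7 of the 67 events were called in each of 6 fits that left out 1 library. The count at 20 points was 2 or 3 in 5 of those fits and 7 without shControl untreated library b. Over all comparisons, DESeq2 kept 1 and limma 2 of 46 calls of named exons, all with an unchanged direction.

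PPIP5K2 encodes a kinase that makes inositol pyrophosphates, and its 174-nt exon (chr5:102518935-102519108, plus strand) encodes 58 amino acids. The PPIP5K2 exon was included at 42.4%, 29.2% and 40.4% in the 3 untreated control libraries and at 80.7%, 64.0% and 69.5% with Cisplatin. Every Cisplatin-treated library lay above every untreated one. The mean rose from 37.4% ± 7.10 to 71.4% ± 8.54 (SD, n = 3), by 34.1 points (log2 change 2.06 ± 0.41 SE, adjusted p = 0.000888). The call was kept in 5 of 6 fits that each left out 1 library, and without shControl + cisplatin library a the adjusted p was 0.158. In depleted cells the same exon rose by 20.0 points (adjusted p = 0.0280), from a higher start of 71.8%, 63.5% and 47.5% to 84.0%, 82.4% and 76.2%.

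ECT2 encodes the exchange factor that activates RhoA for cytokinesis, and its 93-nt exon (chr3:172473273-172473365, plus strand) encodes 31 amino acids. The ECT2 exon was included at 68.7%, 60.1% and 67.4% in untreated control libraries and at 45.7%, 38.9% and 47.3% with Cisplatin. All 3 treated libraries were lower than all 3 untreated ones. Inclusion fell by 21.4 points (log2 change -1.28 ± 0.30 SE, adjusted p = 0.0128), and the call was kept in 1 of 6 fits that left out 1 library (adjusted p up to 0.448). Depleted cells had the same direction for this exon, from 63.6%, 60.9% and 63.8% to 35.1%, 43.5% and 29.4%, a difference of -26.8 points (adjusted p = 8.68e-08).

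TJP1 encodes ZO-1, a scaffold of tight junctions, and its 240-nt exon (chr15:30011981-30012220, minus strand) encodes the alpha motif of 80 amino acids that separates the isoforms of ZO-1. The TJP1 exon was included at 86.5%, 86.8% and 87.1% in untreated control libraries and at 70.3%, 70.1% and 67.0% in treated control libraries. The treated libraries lay below the untreated ones, with little spread in either group. In depleted libraries it was included at 75.7%, 72.8% and 83.9% without and 47.5%, 55.1% and 37.3% with Cisplatin, and again every treated library was lower. The fall was 17.7 points in control cells (log2 change -1.55 ± 0.38 SE, adjusted p = 0.0176) and 30.8 points in depleted cells (log2 change -1.92 ± 0.31 SE, adjusted p = 2.03e-07). The call in control cells was lost in each of 6 fits that left out 1 library (adjusted p up to 0.367), and that in depleted cells was kept in 6 of 6. With Cisplatin, inclusion fell by 22.5 points from control to depleted cells (log2 change -1.35 ± 0.33 SE, adjusted p = 0.00983; 2 of 6 fits kept it). Without Cisplatin the difference of -9.32 points did not pass (adjusted p = 0.693). The difference between the 2 Cisplatin effects on TJP1 was -13.2 points and did not pass the test of the interaction (adjusted p = 0.972).

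REPIN1 encodes a zinc finger protein, and its 171-nt exon (chr7:150067803-150067973, plus strand) is annotated only in transcripts that are targets of nonsense-mediated decay. The REPIN1 exon fell from 64.1%, 70.8% and 65.3% in untreated to 39.2%, 32.2% and 35.9% in treated control libraries, and from 68.8%, 76.8% and 59.3% to 37.7%, 43.7% and 34.4% in depleted libraries. In each genotype all treated libraries were below all untreated ones. The falls were 31.0 points (log2 change -1.82 ± 0.41 SE, adjusted p = 0.00703) and 29.7 points (log2 change -1.76 ± 0.38 SE, adjusted p = 0.000487), the first lost in each fit that left out 1 library (adjusted p up to 0.175) and the second kept in 5 of 6, with the adjusted p at 0.0657 without shRNF113A untreated library b. MPRIP, which binds RhoA and myosin phosphatase, and KTN1, the kinesin receptor kinectin, had exons of 63 and 87 nt that fell by 20.4 and 20.0 points (adjusted p = 0.0328 and 0.0367). Each of these calls was kept in 1 of 6 fits that left out 1 library (adjusted p up to 0.828 and 0.739), and in untreated cells library b was the lowest of the 3 control libraries for both exons, at 51.3% and 57.6%.

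Among the rises, the 138-nt exon of CENPL, a centromere protein, was at 4.18%, 2.97% and 7.79% in untreated and 21.1%, 20.1% and 21.9% in treated control libraries, without overlap. It rose by 16.1 points (log2 change 2.30 ± 0.55 SE, adjusted p = 0.0146), and no fit that left out 1 library kept the call (adjusted p up to 0.290). The COQ3 exon of 123 nt, in a noncoding transcript of the gene for a methyltransferase of coenzyme Q synthesis, was at 4.66%, 6.45% and 7.74% without and 19.2%, 25.0% and 29.3% with Cisplatin. It rose by 18.2 points in control cells (log2 change 2.25 ± 0.49 SE, adjusted p = 0.00316; 3 of 6 fits, adjusted p up to 0.204) and by 30.7 points in depleted cells (adjusted p = 2.58e-07). Exons of DAG1, the gene of dystroglycan, and of SNHG17, a host gene of small nucleolar RNAs, rose by 16.5 and 24.4 points (adjusted p = 0.0186 and 0.0457), calls kept in 1 and 0 of 6 such fits (adjusted p up to 0.518 and 0.593). The SNHG17 call was also lost under TMM scaling (adjusted p = 0.0774).

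In RNF113A-depleted cells, Cisplatin changed 390 of 20953 frame-preserving events, against 2.00% of all cassette exon events tested. They lay in 379 exons of 323 genes, and 180 rose (background 0.996%) and 210 fell (background 1.00%). At least 20 points separated 46 of them (background 0.258%), of which 32 were higher (background 0.177%) and 14 lower (background 0.0806%), and at least 10 points separated 144 (background 0.692%). Of the 144, 86 were higher (background 0.418%) and 58 lower (background 0.274%). Of the 210 falls, 172 started above 90%, as did 17316 of the 20953 events tested, and 108 of the 180 rises started below 10%, as did 1660 of those tested. An exon close to either end of the scale can move far in 1 direction only. By share the frame-preserving exons did not stand out, with 1.86% called against 1.95% of frame-shifting exons of the same lengths. DESeq2 called 58 of the 20953 events and limma 228, and 117 of the 390 events were called in all 6 fits that left out 1 library. At 20 points these fits called 23 to 39, with 27, 28 and 23 without shRNF113A untreated libraries a and b and shRNF113A + cisplatin library c. More events were called in depleted than in control cells; whether the changes themselves differed between genotypes was tested separately, with the interaction given below.

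TMBIM6, also known as Bax inhibitor 1, encodes a membrane protein of the endoplasmic reticulum that protects from cell death, and its 159-nt exon (chr12:50135740-50135898, plus strand) lies in the untranslated region. The TMBIM6 exon was included at 89.7%, 94.8% and 100% in untreated depleted libraries and at 45.4%, 54.2% and 55.9% in treated depleted libraries. The 3 treated libraries were far below the untreated ones. It fell by 43.0 points (log2 change -3.78 ± 0.75 SE, adjusted p = 9.24e-05), was also called by DESeq2 (adjusted p = 0.0182) and limma (adjusted p = 0.0173), and was kept in 6 of 6 fits that left out 1 library. In control cells its levels were 94.0%, 100% and 100% without and 93.7%, 90.04% and 83.5% with Cisplatin, a difference of -8.95 points that did not pass (adjusted p = 0.706). The difference between the 2 Cisplatin effects, -34.1 points, did not pass the test of the interaction (adjusted p = 0.967).

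PXN encodes paxillin, an adaptor of focal adhesions, and its 102-nt exon (chr12:120653363-120653464, minus strand) encodes 34 amino acids. The PXN exon was included at 32.3%, 36.8% and 29.9% in untreated and 65.1%, 62.3% and 65.3% in treated depleted libraries, and all treated libraries were higher. It rose by 31.2 points (log2 change 1.86 ± 0.51 SE, adjusted p = 0.0187), a call lost in each of 6 fits that left out 1 library (adjusted p up to 0.206). In control libraries it was at 26.98%, 24.7% and 37.5% without and 51.8%, 75.9% and 41.6% with Cisplatin, where the treated libraries spread widely and the difference did not pass (adjusted p = 0.395).

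ASXL1, a chromatin regulator of the Polycomb system, had a wholly coding exon of 153 nt at 58.2%, 54.0% and 58.8% in untreated and 89.7%, 82.9% and 87.8% in treated depleted libraries. The ASXL1 exon was higher in every treated library and rose by 29.8 points (log2 change 2.27 ± 0.58 SE, adjusted p = 0.00774; 2 of 6 fits, adjusted p up to 0.151). ACIN1 encodes acinus, a nuclear protein of the exon junction complex, and its 120-nt exon was at 21.4%, 22.6% and 24.8% in untreated and 44.9%, 41.8% and 53.9% in treated depleted libraries. The ACIN1 exon was higher in every treated library, rose by 23.9 points (log2 change 1.56 ± 0.31 SE, adjusted p = 7.02e-05) and was kept in 6 of 6 fits. In control libraries the ACIN1 exon was at 16.2%, 31.9% and 25.3% without and 39.0%, 46.5% and 40.8% with Cisplatin, also without overlap, and the difference of 17.6 points did not pass (adjusted p = 0.146). SPAG9, a scaffold of JNK signalling, had an exon of 39 nt at 44.8%, 44.9% and 40.3% in untreated and 24.1%, 26.6% and 15.4% in treated depleted libraries, which were lower throughout. The SPAG9 exon fell by 21.3 points (log2 change -1.40 ± 0.36 SE, adjusted p = 0.00710; 2 of 6 fits, adjusted p up to 0.148).

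The exons of HMGXB4, an HMG box protein, of RBM4B, an RNA-binding protein, and of PRMT7, an arginine methyltransferase, rose by 32.0, 29.3 and 28.4 points in depleted cells (adjusted p = 0.0101, 0.0149 and 0.00466). Those calls were kept in 1, 1 and 2 of 6 fits that left out 1 library (adjusted p up to 0.283, 0.264 and 0.143). The HMGXB4 exon is partly coding, that of RBM4B belongs to a decay transcript and that of PRMT7 to the untranslated region. FYB encodes an adaptor protein of adhesion signalling, and its 138-nt exon was at 62.4%, 47.9% and 73.03% in untreated and 31.7%, 44.5% and 24.7% in treated depleted libraries. The highest treated FYB value, in library b, lay just below the lowest untreated one, also in library b. It fell by 27.5 points (log2 change -1.62 ± 0.44 SE, adjusted p = 0.0159; 2 of 6 fits, adjusted p up to 0.362). LGALS8 encodes galectin-8, a lectin that marks damaged endosomes, and its 126-nt exon was at 67.0%, 61.5% and 76.2% in untreated and 44.9%, 47.1% and 32.4% in treated depleted libraries, and fell by 26.8 points (log2 change -1.59 ± 0.38 SE, adjusted p = 0.00341; 3 of 6 fits, adjusted p up to 0.140).

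The called exons of the gene lists included those of BIRC5, APAF1, LSR and U2AF1L4. BIRC5 encodes survivin, an inhibitor of apoptosis with a role in mitosis, and its partly coding 165-nt exon was at 4.05%, 10.3% and 4.08% in untreated and 30.3%, 26.9% and 21.4% in treated depleted libraries. The BIRC5 exon rose by 20.0 points (log2 change 2.37 ± 0.50 SE, adjusted p = 0.000414), with an adjusted p of 0.0528 without shRNF113A untreated library a, while its gene fell (log2 fold change -0.81, adjusted p = 6.53e-06). APAF1 encodes the core of the apoptosome, and its 129-nt coding exon was at 32.8%, 30.4% and 49.6% in untreated and 65.5%, 63.2% and 65.0% in treated depleted libraries, with the gene itself rising (log2 fold change 1.13, adjusted p = 8.60e-07). The APAF1 exon rose by 26.9 points (log2 change 1.69 ± 0.47 SE, adjusted p = 0.0190; 1 of 6 fits, adjusted p up to 0.367). LSR, a receptor at tricellular junctions, had a 57-nt coding exon at 20.2%, 16.3% and 14.95% in untreated and 33.2%, 39.6% and 49.3% in treated depleted libraries, all treated ones being higher. The LSR exon rose by 23.5 points (log2 change 1.70 ± 0.39 SE, adjusted p = 0.00157; 4 of 6 fits, with adjusted p up to 0.0620, lost without library c of either condition), and in control cells it was at 24.9%, 35.1% and 34.6% without and 54.6%, 64.6% and 58.9% with Cisplatin (difference 27.8 points, adjusted p = 0.244). U2AF1L4, a relative of the small subunit of the splicing factor U2AF, had a 63-nt exon of decay transcripts that rose by 26.6 points (adjusted p = 0.0186; 0 of 6 fits, up to 0.362).

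**Figure D2:**
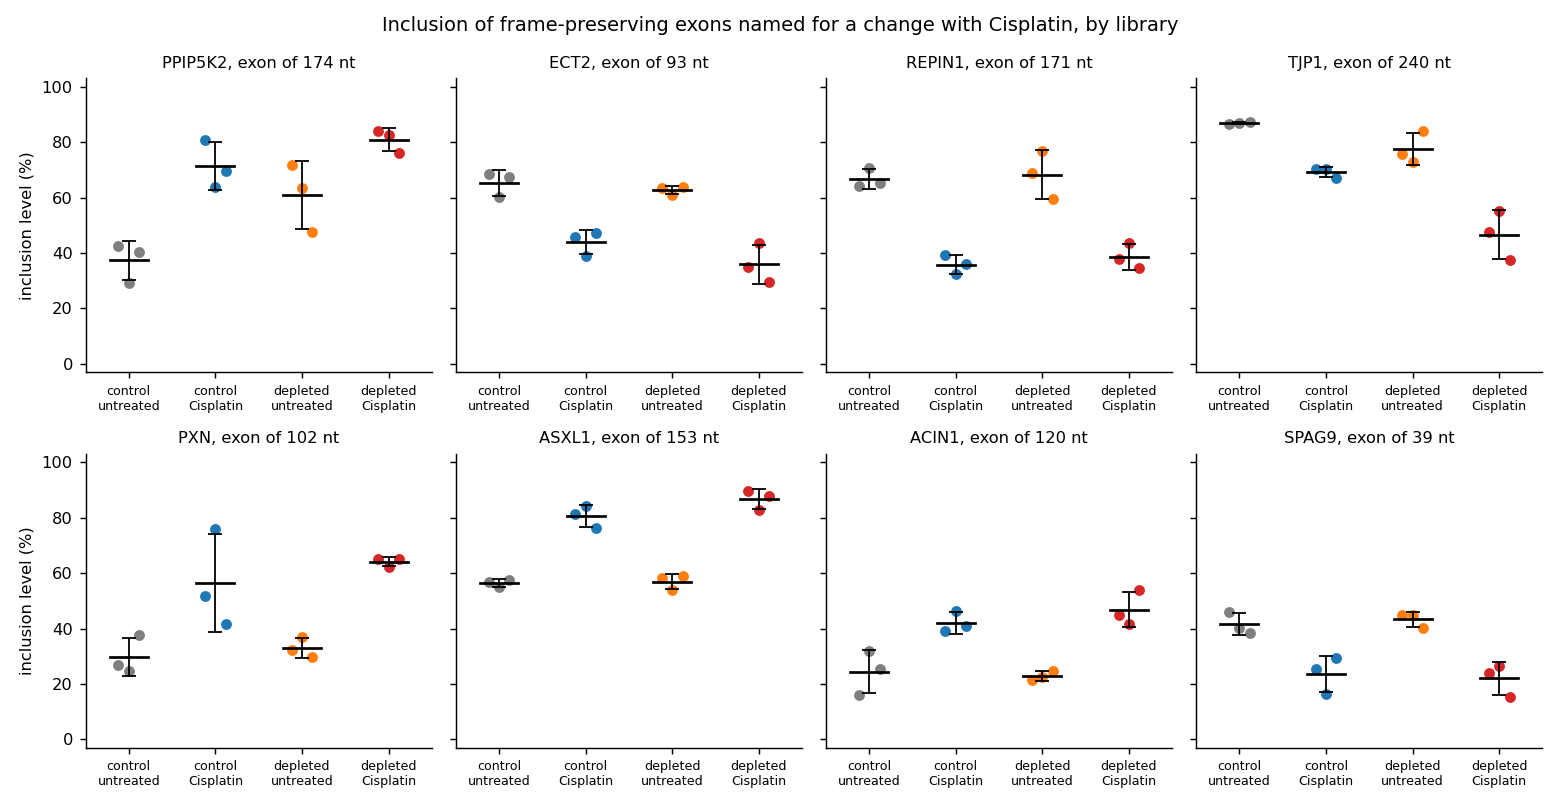
Inclusion level in percent of 8 frame-preserving exons (PPIP5K2, ECT2, REPIN1, TJP1, PXN, ASXL1, ACIN1 and SPAG9) in the 12 libraries, by condition. Each point is a library and each bar the condition mean with its SD (n = 3); PPIP5K2, PXN, ASXL1 and ACIN1 were higher and ECT2, REPIN1, TJP1 and SPAG9 lower with Cisplatin in depleted cells, for example ECT2 with 35.1%, 43.5% and 29.4% against 63.6%, 60.9% and 63.8%.

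PKM, which encodes the M-type pyruvate kinase of glycolysis, held the frame-preserving event with the largest difference among those that every test called for Cisplatin in depleted cells. It was looked at after its values were seen and lies outside the naming rule. Its 117-nt coding exon (chr15:72513509-72513625, minus strand) is not among the mutually exclusive exons that distinguish the M1 and M2 enzymes. In the event whose upstream exon spans 72523237 to 72523454 it was included at 26.1%, 37.9% and 41.0% in untreated control libraries and at 91.2%, 84.0% and 81.7% in treated ones. Depleted libraries had 31.8%, 29.9% and 31.1% without and 80.0%, 83.2% and 82.5% with Cisplatin, and in each genotype all treated libraries were above all untreated ones. The rises were 50.7 points (log2 change 3.45 ± 0.44 SE, adjusted p = 3.05e-11) and 51.0 points (log2 change 3.32 ± 0.42 SE, adjusted p = 3.80e-12). DESeq2 called both (adjusted p = 0.00174 and 0.000333), whereas limma called the second (adjusted p = 0.0137) and not the first (adjusted p = 0.0805). No difference upon depletion passed the test (differences of -4.04 and -3.76 points, adjusted p = 0.788 and 0.702). In the second event of the same exon, whose upstream exon spans 72523457 to 72523531, mean levels were 0.230% and 1.60% in control and 0.236% and 1.11% in depleted cells. Reads on the exon body count for both events, so the level of each depends on the abundance of both upstream exons.

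RNF113A depletion in untreated cells changed 25 of 21461 frame-preserving events, against 0.103% of all cassette exon events tested, in 24 exons of 20 genes. Of these, 14 rose (background 0.0486%) and 11 fell (background 0.0540%). At least 20 points separated 3 (background 0.0144%), 1 higher, in ZRANB2 (background 0.00180%), and 2 lower, in CTNND1 and GFM2 (background 0.0126%), and at least 10 points separated 6 (background 0.0360%), 3 higher (background 0.0126%) and 3 lower (background 0.0234%). Neither DESeq2 nor limma called any of the 21461 events, 843 events had an unadjusted p under 0.05 in edgeR, and 2 of the 25 events, in MYL6 and TMEM9B, were called in all 6 fits that left out 1 library. At 20 points these fits called 0 to 3, with 1 without shControl untreated library c and 1, 0 and 0 without shRNF113A untreated libraries a, b and c. With TMM scaling 17 events rose and 8 fell.

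MYL6 encodes an essential light chain of myosin, and its 45-nt exon (chr12:56554410-56554454, plus strand) distinguishes the smooth muscle from the nonmuscle form. The MYL6 exon was included at 16.3%, 11.4% and 16.2% in untreated control libraries and 32.7%, 36.4% and 33.0% in untreated depleted libraries. All depleted libraries were above all control libraries, with at least 5095 reads in each. It rose by 19.4 points (log2 change 1.61 ± 0.21 SE, adjusted p = 2.67e-09) and was kept in 6 of 6 fits that left out 1 library. In depleted cells Cisplatin lowered it to 21.5%, 22.4% and 23.1% (by 11.7 points, adjusted p = 0.0145).

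TMEM9B, a lysosomal membrane protein, had a 135-nt coding exon (chr11:8974750-8974884, minus strand) at 98.5%, 99.1% and 98.0% in untreated control and 86.9%, 86.3% and 81.1% in untreated depleted libraries. The TMEM9B exon was lower in every depleted library, fell by 13.8 points (log2 change -3.57 ± 0.55 SE, adjusted p = 3.43e-06) and was kept in 6 of 6 fits. With Cisplatin it was at 98.9%, 96.8% and 98.2% in control and 87.2%, 88.8% and 87.2% in depleted libraries (difference -10.2 points, adjusted p = 2.59e-05). APH1A encodes a subunit of gamma-secretase, and its 171-nt exon was at 94.8%, 94.5% and 95.8% in control and 85.6%, 85.0% and 86.3% in depleted libraries. The APH1A exon had a narrow spread in each group and fell by 9.39 points without Cisplatin (log2 change -1.67 ± 0.32 SE, adjusted p = 0.00166; 1 of 6 fits, adjusted p up to 0.278) and fell by 9.36 points with it (adjusted p = 0.000818).

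CTNND1 encodes p120 catenin, which stabilises cadherins at the cell surface, and its 180-nt partly coding exon (chr11:57558966-57559145, plus strand) was at 61.2%, 70.7% and 74.4% in untreated control libraries. In untreated depleted libraries the CTNND1 exon was at 46.9%, 42.0% and 42.0%, below every control library. It fell by 25.1 points (log2 change -1.51 ± 0.31 SE, adjusted p = 0.00470; 2 of 6 fits, adjusted p up to 0.348). With Cisplatin the levels were 65.0%, 67.2% and 68.9% in control and 58.6%, 55.1% and 60.1% in depleted libraries, closer together, and the difference of -9.12 points did not pass (adjusted p = 0.702). GFM2, a factor of mitochondrial translation, had a 141-nt coding exon at 88.8%, 96.1% and 93.6% in control and 76.7%, 71.5% and 69.9% in depleted libraries. The GFM2 exon was lower in all 3 and fell by 20.1 points (log2 change -2.27 ± 0.48 SE, adjusted p = 0.00528, 1 of 6 fits, adjusted p up to 0.278). ZRANB2, a zinc finger protein that binds RNA and regulates splicing, had a 75-nt exon at 46.2%, 27.5% and 40.8% in control and 66.2%, 61.7% and 62.1% in depleted libraries. The ZRANB2 exon was higher in every depleted library and rose by 25.2 points (log2 change 1.48 ± 0.36 SE, adjusted p = 0.0432), but no fit that left out 1 library kept the call (adjusted p up to 0.851).

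ZDHHC7, a palmitoyltransferase, had a 111-nt coding exon that rose upon depletion under both treatments. The ZDHHC7 exon was at 16.6%, 20.99% and 17.4% in untreated control, 43.6%, 34.6% and 32.0% in untreated depleted, 20.9%, 27.1% and 25.1% in treated control and 45.5%, 43.8% and 38.3% in treated depleted libraries. Depleted libraries were higher throughout, by 18.4 points without (log2 change 1.37 ± 0.32 SE, adjusted p = 0.0224) and 18.2 points with Cisplatin (log2 change 1.205 ± 0.33 SE, adjusted p = 0.0343), each call kept in 1 of 6 fits (adjusted p up to 0.851 and 0.508). Smaller changes were called in FOXM1, a transcription factor of mitotic genes, whose 45-nt exon rose by 7.66 points, and in VCL, whose 204-nt exon turns vinculin into metavinculin and rose by 5.75 points (adjusted p = 0.0415 and 0.0165; 0 of 6 fits for each, adjusted p up to 0.850 and 0.606). The LTBR exon, in the gene of the lymphotoxin beta receptor, fell by 6.94 points (adjusted p = 0.00525; 1 of 6 fits, up to 0.517).

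In Cisplatin-treated cells, depletion changed 153 of 20589 frame-preserving events, against 0.813% of all cassette exon events tested, in 148 exons of 125 genes. Of these, 28 rose (background 0.201%) and 125 fell (background 0.613%). At least 20 points separated 12 (background 0.0651%), 3 higher (background 0.0307%) and 9 lower (background 0.0343%), and at least 10 points separated 28 (background 0.186%). Of the 28, 6 were higher (background 0.0705%) and 22 lower (background 0.116%). In control cells 117 of the 125 falls were above 90%, as were 17014 of the 20589 events tested, and 22 of the 28 rises were below 10%, as were 1686 of those tested. The share of frame-preserving events called, 0.743%, was close to the 0.803% of frame-shifting events of the same lengths. The split depended on scaling: TMM moved the log2 change of all events by a median of 0.15, from a median of -0.39 to -0.26, and then called 61 events higher and 114 lower. DESeq2 called 12 events and limma 150, and 33 of the 153 events were called in all 6 fits that left out 1 library. At 20 points these fits called 4 to 10, with 4 and 5 without shRNF113A + cisplatin libraries a and c and 6 without shControl + cisplatin library a or c.

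IVNS1ABP, a kelch-repeat protein that binds a viral protein and actin, had a 141-nt exon (chr1:185275617-185275757, minus strand) annotated only in noncoding transcripts. The IVNS1ABP exon was at 17.3%, 13.1% and 18.95% in treated control and 44.2%, 41.5% and 44.2% in treated depleted libraries, which were higher throughout. It rose by 26.9 points (log2 change 1.97 ± 0.36 SE, adjusted p = 3.05e-05; TMM log2 change 2.13) and was kept in 6 of 6 fits that left out 1 library. Untreated cells had 11.1%, 9.84% and 13.6% in control and 29.0%, 23.2% and 20.2% in depleted libraries, a difference of 12.6 points that did not pass (adjusted p = 0.184).

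TAPBP encodes tapasin, which loads peptides onto MHC class I, and its 90-nt coding exon (chr6:33271905-33271994, minus strand) encodes 30 amino acids. The TAPBP exon was at 89.3%, 90.1% and 92.5% in treated control and 59.9%, 63.3% and 59.9% in treated depleted libraries. Every depleted library was lower, and the spread within each condition was small. It fell by 29.6 points (log2 change -2.61 ± 0.49 SE, adjusted p = 8.71e-05; TMM log2 change -2.46) and was kept in 6 of 6 fits. In untreated cells it was at 94.7%, 97.0% and 89.4% in control and 76.7%, 78.8% and 79.8% in depleted libraries, a difference of -15.2 points that did not pass (adjusted p = 0.0594).

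The FYB exon (chr5:39126100-39126237, minus strand) was at 66.4%, 80.1% and 65.8% in treated control and 31.7%, 44.5% and 24.7% in treated depleted libraries. All depleted libraries were lower, and the fall was 37.1 points (log2 change -2.27 ± 0.42 SE, adjusted p = 5.91e-05; TMM log2 change -2.11; 6 of 6 fits). The TMBIM6 exon fell by 37.3 points, from 93.7%, 90.04% and 83.5% to 45.4%, 54.2% and 55.9% (log2 change -2.88 ± 0.64 SE, adjusted p = 0.00255; TMM log2 change -2.77). Its call was kept in 4 of 6 fits and lost without library a of either condition (adjusted p up to 0.156), and limma also called it (adjusted p = 0.0454). SAT2, of the diamine acetyltransferase family, had an 87-nt exon of a decay transcript at 81.7%, 78.2% and 79.9% in treated control and 53.3%, 58.0% and 40.9% in treated depleted libraries, and fell by 29.2 points (log2 change -1.94 ± 0.51 SE, adjusted p = 0.0260). No fit that left out 1 library kept the SAT2 call (adjusted p up to 0.530), and TMM scaling ended it (log2 change -1.79, adjusted p = 0.0666). The TJP1 exon, given above, had a TMM log2 change of -1.19.

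Rises upon depletion with Cisplatin were also called in CDCA7, a chromatin protein that works with the remodeller HELLS, in ARRB2, the gene of beta-arrestin, and in TSSC4. The CDCA7 exon of 162 nt was at 14.0%, 20.1% and 19.8% in control and 37.2%, 35.1% and 49.6% in depleted libraries, higher in all 3 (22.7 points; log2 change 1.63 ± 0.39 SE, adjusted p = 0.00677; 2 of 6 fits, adjusted p up to 0.322). The ARRB2 exon of 186 nt was at 5.60%, 2.08% and 9.71% in control and 25.6%, 16.3% and 20.2% in depleted libraries (14.9 points; log2 change 2.08 ± 0.49 SE, adjusted p = 0.00606; 2 of 6 fits, adjusted p up to 0.266), and that of TSSC4 rose by 11.6 points (adjusted p = 0.0291; 0 of 6 fits, up to 0.722). Under TMM scaling the log2 changes of CDCA7, ZDHHC7, ARRB2 and TSSC4 were 1.79, 1.37, 2.23 and 1.57, in the same direction.

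**Figure D3:**
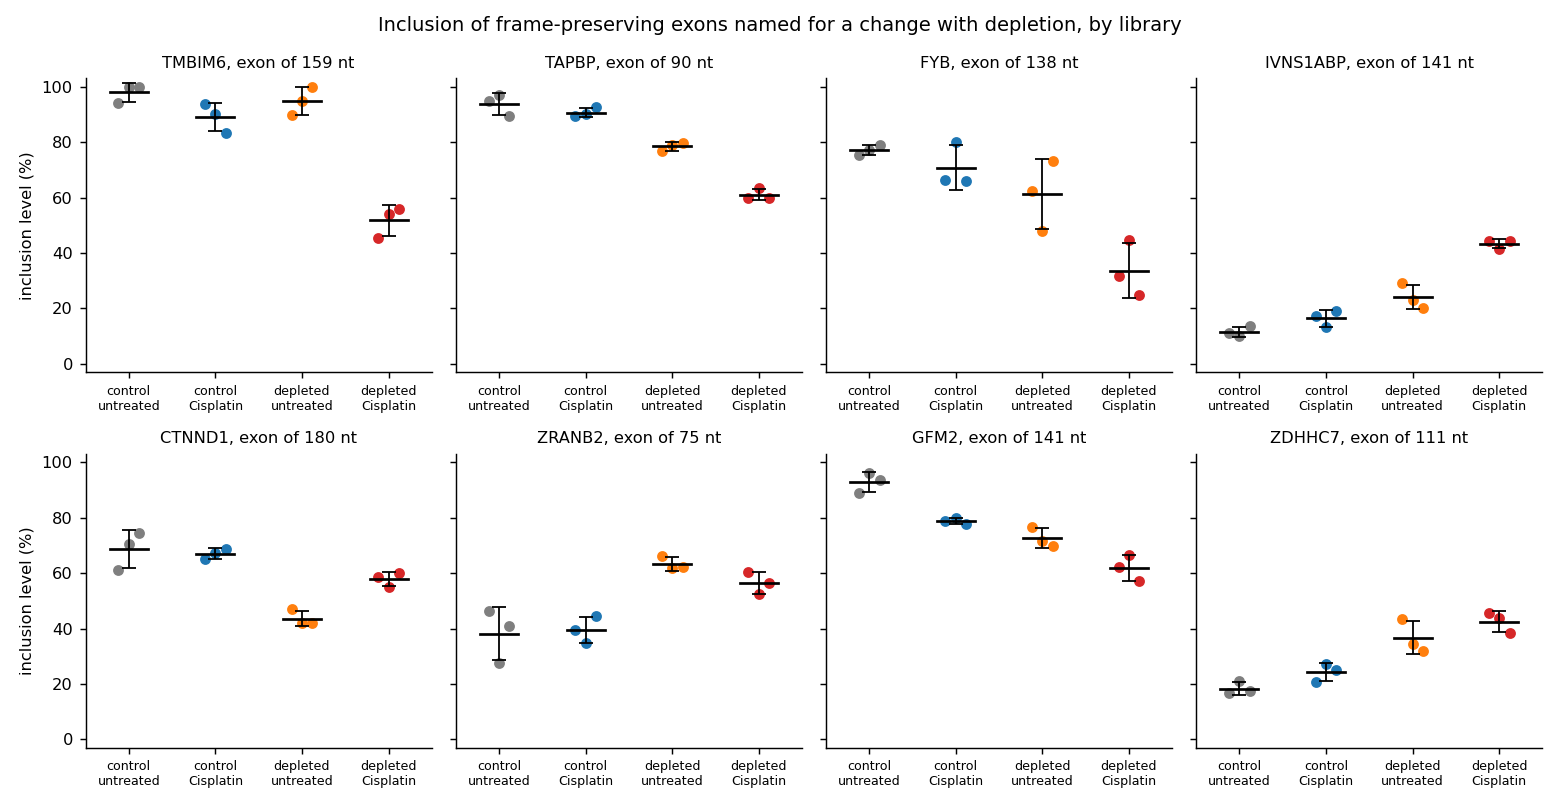
Inclusion level in percent of 8 frame-preserving exons (TMBIM6, TAPBP, FYB, IVNS1ABP, CTNND1, ZRANB2, GFM2 and ZDHHC7) in the 12 libraries, by condition. Each point is a library and each bar the condition mean with its SD (n = 3); the TMBIM6 exon is between 83.5% and 100% in 9 libraries and between 45.4% and 55.9% in the 3 libraries of Cisplatin-treated depleted cells.

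The difference between the Cisplatin effects of the 2 genotypes was tested in a fit over all 12 libraries, on 15578 frame-preserving events of 40856. No event had an adjusted p under 0.05 and a difference of differences of at least 20 points (background 0.00245%), with 704 events at an unadjusted p under 0.05 in edgeR and none called by DESeq2. At an adjusted p alone, 2 events passed (background 0.0245%), in ATP5H, which encodes a subunit of mitochondrial ATP synthase, and in ANXA1, the gene of annexin A1. The ATP5H exon of 72 nt was at 99.5%, 99.8% and 99.2% in untreated control, 99.4%, 99.2% and 98.9% in treated control and 99.7%, 99.5% and 99.6% in untreated depleted libraries. In treated depleted libraries it was at 95.4%, 96.3% and 93.0%, below all 9 others. The ANXA1 exon of 96 nt was at 99.6%, 99.7% and 99.4% in untreated control, 99.4%, 99.7% and 99.5% in treated control, 99.5%, 99.5% and 99.3% in untreated depleted and 98.2%, 98.2% and 95.4% in treated depleted libraries, again the lowest. The Cisplatin effect in depleted cells was lower than in control cells: it differed by -4.43 points for ATP5H (log2 change -3.05 ± 0.67 SE, adjusted p = 0.0248) and by -2.11 points for ANXA1 (log2 change -2.05 ± 0.41 SE, adjusted p = 0.00393). These calls were kept in 4 and 7 of 12 fits that left out 1 library.

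The comparisons of Cisplatin in control and in depleted cells share no library, and neither do those of depletion without and with Cisplatin. Among 14175 frame-preserving events tested for Cisplatin in both genotypes, 65 were called in control and 339 in depleted cells. Both lists held 44 events, or 67.7% of the first and 12.98% of the second, all in the same direction. Among 13610 events tested for depletion under both treatments, 24 and 108 were called and 7 in both, 29.2% and 6.48%, all in the same direction, in APH1A, CD44, EMP3, NIFK, TMEM9B and ZDHHC7.

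**Figure D4:**
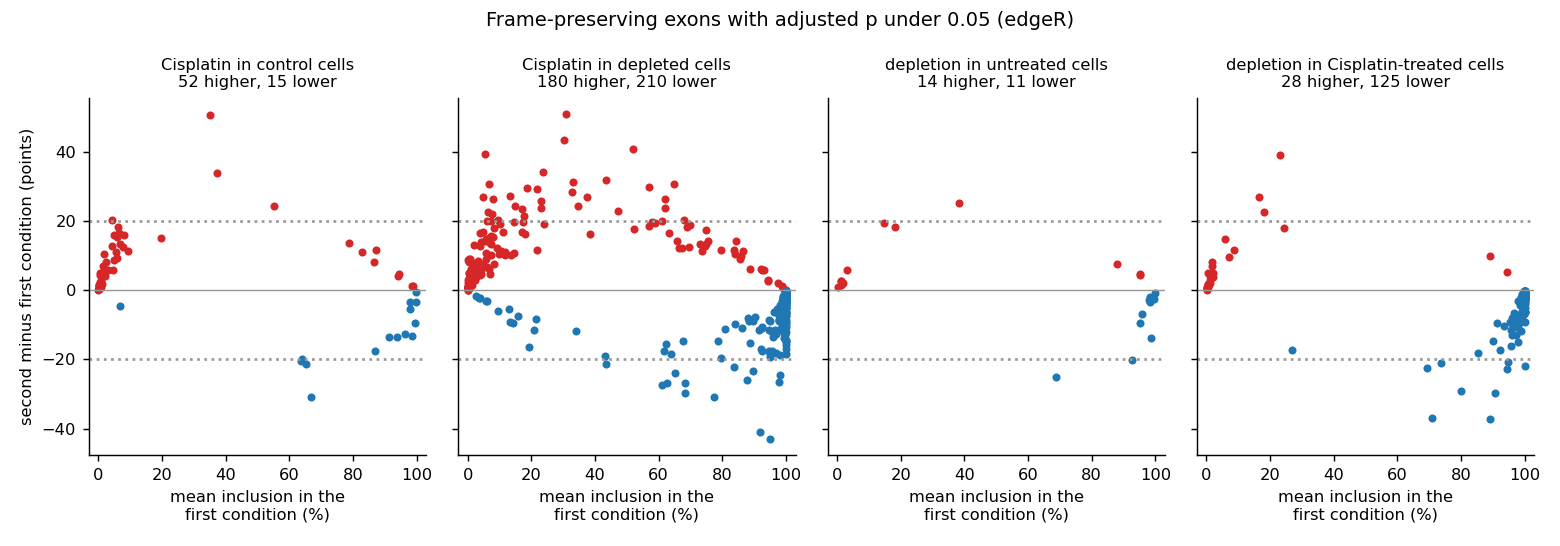
Difference in mean inclusion (percentage points, second condition minus first) against the mean inclusion level of the first condition (percent) for the frame-preserving events with an adjusted p under 0.05, in 4 panels by comparison; dotted lines mark 20 points in each direction. Events that start near full inclusion lie mostly below 0 and those near 0% above it, with 52 higher and 15 lower, 180 and 210, 14 and 11, and 28 and 125 events in the panels for Cisplatin in control cells, Cisplatin in depleted cells, depletion in untreated cells and depletion in Cisplatin-treated cells.

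The direction of the called changes differed by annotation with Cisplatin in depleted cells and upon depletion in treated cells. With Cisplatin in depleted cells, 82 of 17671 tested events rose and 172 fell among wholly coding exons. Exons of decay transcripts had the opposite balance, as 34 of 890 tested events rose and 10 fell, and so did exons of untranslated regions, where 28 of 744 tested events rose and 7 fell. Upon depletion in treated cells, 8 of 17238 tested events rose and 108 fell among wholly coding exons. Among exons of decay transcripts 8 of 899 rose and 5 fell there. With Cisplatin in control cells, 12 of 902 tested events rose and 2 fell among exons of decay transcripts. Wholly coding exons had no opposite balance in that comparison, as 24 of 17600 tested events rose and 10 fell. Annotation goes with the starting level, which was near 100% for most coding exons and low for most exons of decay transcripts. The parts of annotation and level in these directions were not separated and not tested. The 484 events called in any comparison were wholly coding in 66.5%, against 85.0% of all 30080, and belonged to decay transcripts in 11.98%, against 3.77%. Their median upstream and downstream introns had 1243 and 1204 nt, against 2410 and 2142 nt, their median exon GC content was 50.9% against 47.9%, and 72.2% against 77.8% of the bases in the window before the 3′ splice site were pyrimidines. These features are given without a test.

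**Figure D5:**
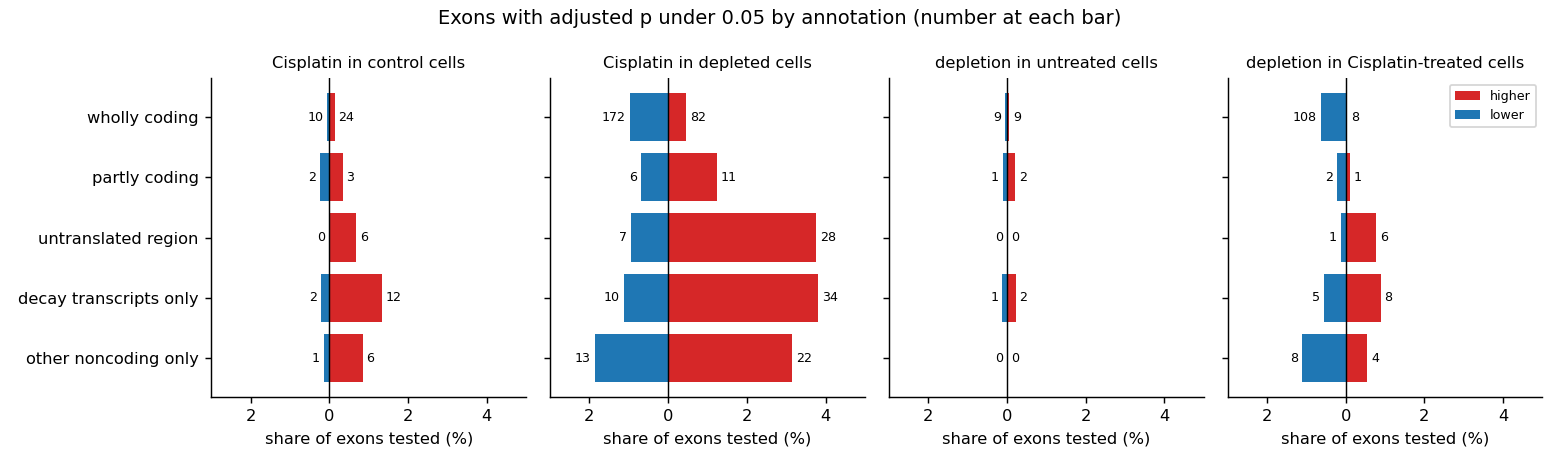
Share of the frame-preserving events tested, in percent, that had an adjusted p under 0.05 and were higher or lower in the second condition, by annotation of the exon and by comparison; the number of events stands at each bar. For Cisplatin in depleted cells the bars hold 82 higher and 172 lower wholly coding events and 34 higher and 10 lower events of decay transcripts.

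Genes of splicing factors and RNA-binding proteins held frame-preserving exons that rose with Cisplatin and belong to decay transcripts. Of the list of 79 such genes, 10 rose and 9 fell of 271 events with Cisplatin in depleted cells (7.01% called, against 2.00% of all cassette exon events). Of these, 7 rises were among the 23 events of decay transcripts, where none fell, and 8 falls among the 213 wholly coding events. The median difference was -0.0214 points over the list, 1.24 over its events of decay transcripts and 0.00307 over all frame-preserving events tested. Over all 890 frame-preserving events of decay transcripts the median was 0.165 points, with 34 rises and 10 falls. DESeq2 called 3 events of the list, all falls of wholly coding exons, in HNRNPDL and HNRNPH3, and limma called 11. The SRSF7 exon of 276 nt, in an SR protein, was at 5.37%, 3.87% and 4.50% in untreated control, 9.78%, 10.5% and 10.8% in treated control, 7.58%, 7.67% and 7.01% in untreated depleted and 17.2%, 18.2% and 17.5% in treated depleted libraries. Treated libraries of each genotype were above the untreated ones, by 5.80 points, adjusted p = 0.00456, in control cells and by 10.2 points, adjusted p = 4.67e-07, in depleted cells. The HNRNPDL exon of 105 nt, in an hnRNP protein, was at 8.53%, 7.71% and 7.54% in untreated control, 21.4%, 25.9% and 24.4% in treated control, 15.2%, 14.1% and 14.3% in untreated depleted and 34.5%, 30.8% and 37.9% in treated depleted libraries. It was higher with Cisplatin in each genotype, by 16.0 points, adjusted p = 9.26e-07, and by 19.9 points, adjusted p = 1.95e-09. The TRA2B exon of 276 nt, in a regulator of exon inclusion, was at 7.92%, 5.35% and 5.00% in untreated and 11.3%, 12.8% and 14.6% in treated depleted libraries, without overlap, a rise of 6.83 points, adjusted p = 0.000591. In SRSF4, the 195-nt exon rose in depleted cells by 6.64 points, adjusted p = 0.00598, from 3.39%, 4.12% and 1.89% to 11.5%, 10.1% and 7.66%, and in TIA1 the 66-nt exon rose by 7.53 points, adjusted p = 0.0138.

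The coding exons of the same list that fell did so from nearly full inclusion. The CLK1 exon of 117 nt, in a kinase of SR proteins, was at 100% (rounded) in each treated control and untreated depleted library, and at 89.4%, 96.2% and 86.6% in treated depleted libraries. The HNRNPH3 exon of 87 nt also rounded to 100% in those 6 libraries and stood at 98.0%, 98.1% and 96.5% in treated depleted libraries, which were the lowest for both exons. Upon depletion in treated cells 0 rose and 8 fell of 260 events of the list, in CLK1, HNRNPA2B1, HNRNPDL, HNRNPH3 and SRSF5. That was 3.08% called, against 0.813% of all cassette exon events, with a median of -0.0903 points against -0.129 over all frame-preserving events. In untreated cells 2 rose and 1 fell of 238 events upon depletion (1.26% called, against 0.103%, and median -0.00837 points, against -0.0406). The rises were in SNRNP70, whose protein belongs to the U1 particle: its 60-nt exon of decay transcripts was at 1.61%, 2.71% and 1.35% in control and 4.12%, 4.67% and 3.51% in depleted libraries, higher in all 3 (2.21 points, adjusted p = 0.0224), and the 72-nt form with the same 3′ splice site rose by 1.74 points, adjusted p = 0.0415. The fall was in DDX5, an RNA helicase, whose 225-nt coding exon went from 97.8%, 98.2% and 97.9% to 95.5%, 94.8% and 95.3% and fell by 2.78 points, adjusted p = 0.0109. With Cisplatin in control cells 3 rose and 1 fell of 224 events of the list (1.79% called, against 0.351%, and median 0.0416 points, against 0.0620). DESeq2 and limma called no event of the list in that comparison or for depletion in untreated cells.

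Genes whose exons are known to switch between epithelial and mesenchymal cells, a list of 30, had 4 events that rose and 6 that fell of 194 with Cisplatin in depleted cells (median 0.0613 points), and 0 and 1 of 169 in control cells (median 0.0724). Upon depletion 4 rose and 1 fell of 186 in untreated cells (median 0.0157), and 2 and 1 of 168 in treated cells (median -0.177). All rises upon depletion were in the single gene CD44. Under each treatment they included the 102-nt and 105-nt forms of 1 exon with the same 3′ splice site. Called were 5.15%, 0.592%, 2.69% and 1.79% of the list's events in that order, against 2.00%, 0.351%, 0.103% and 0.813% of all cassette exon events, and events of 1 exon share reads. DESeq2 and limma called no event of the list in any comparison. CD44, the hyaluronan receptor, has a variable region of cassette exons, and its 102-nt exon was at 1.27%, 0.954% and 1.25% in untreated control and 3.93%, 5.27% and 2.31% in untreated depleted libraries. With Cisplatin that CD44 exon was at 0.337%, 0.428% and 0.493% in control and 1.49%, 2.13% and 1.15% in depleted libraries. Depleted libraries were higher under each treatment (by 2.68 points, adjusted p = 7.98e-05, and by 1.17 points, adjusted p = 0.00147), at levels of at most 5.27%. Each call was kept in 4 of 6 fits that left out 1 library. EPCAM, the epithelial marker, was higher in the same depleted libraries, as given above, and its part in these differences was not tested. The 147-nt exon of LSR was at 73.2%, 70.8% and 65.7% in untreated and 86.7%, 87.4% and 91.9% in treated depleted libraries, higher in all 3, a rise of 18.8 points, adjusted p = 2.03e-07. The 81-nt exon of MAP3K7, which encodes the kinase TAK1, rose by 16.3 points, adjusted p = 0.0445, an exon of CLSTN1 fell by 18.3 points, adjusted p = 0.0352, and an exon of UAP1 fell by 18.96 points, adjusted p = 0.0463. For CLSTN1 the untreated control libraries spread from 35.8% in library b to 73.9% in library c, a wider range than in depleted cells.

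In the list of 77 genes of the cytoskeleton, adhesion and membrane traffic, 3 rose and 10 fell of 394 events with Cisplatin in depleted cells (median 0.0479 points) and 0 rose and 1 fell of 414 in control cells (median 0.0640). Upon depletion, 2 rose and 0 fell of 418 events in untreated cells (median -0.0572) and 0 rose and 1 fell of 390 in treated cells (median -0.106). In that order, 3.30%, 0.242%, 0.478% and 0.256% of the list's events were called, against the same shares of all events as above. DESeq2 called no event of the list in any comparison, and limma called 2, both for Cisplatin in depleted cells. KIF23, a kinesin of cytokinesis, had a 174-nt exon at 95.9%, 97.3% and 96.6% in untreated and 86.1%, 87.2% and 81.7% in treated depleted libraries, lower in all 3, which fell by 11.6 points, adjusted p = 4.10e-06. The 111-nt exon of CTTN, the gene of cortactin, went from 84.0%, 84.5% and 83.3% to 74.6%, 76.7% and 71.4% and fell by 9.69 points, adjusted p = 0.0494. The 78-nt exon of SEC31A, a coat protein of vesicles, rose from 20.5%, 17.3% and 13.4% to 38.7%, 29.4% and 33.5% (16.8 points, adjusted p = 0.00458). In the list of 75 DNA repair and checkpoint genes, 0 rose and 1 fell of 228 events with Cisplatin in depleted cells (0.439% called, against 2.00% of all events; median -0.123), the fall being in CHEK1, the checkpoint kinase, whose 96-nt exon went from 99.5%, 99.4% and 100% to 94.4%, 97.3% and 87.8% and fell by 6.43 points, adjusted p = 0.0135. EdgeR called none of 233, 223 and 261 events of that list for Cisplatin in control cells and for depletion without and with Cisplatin, where 0.351%, 0.103% and 0.813% of all events were called, nor did DESeq2, while limma called 1 in the last of these, with 11, 7 and 12 events at an unadjusted p under 0.05 in edgeR, with medians of 0.00590, -0.0928 and -0.248 points. Of 36 genes of apoptosis and p53 regulation, 3 rose and 0 fell of 97 events with Cisplatin in depleted cells, in APAF1 and BIRC5 (3.09% called, against 2.00%; median 0.117), and 0 rose and 2 fell of 98 upon depletion with Cisplatin, in MDM2 and TNFRSF10B, by at most 1.16 points (2.04% called, against 0.813%; median -0.174). EdgeR made no call on that list among 83 events with Cisplatin in control cells and 77 upon depletion in untreated cells, nor did DESeq2 or limma make 1, with 8 and 1 events at an unadjusted p under 0.05 in edgeR (medians 0.00708 and -0.117).

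Some events were called by edgeR, DESeq2, limma and all 6 edgeR fits that left out 1 library; these were picked out after the values were seen. There were 47 for Cisplatin in depleted cells (background of all events 0.235%), 15 higher and 32 lower, and 11 for depletion in treated cells (background 0.0651%), all lower. None met this for Cisplatin in control cells or for depletion in untreated cells (background 0.00% and 0.00%), where edgeR alone had 1149 and 843 events at an unadjusted p under 0.05. Of the 32 falls for Cisplatin in depleted cells, 28 were in wholly coding exons, as were 17671 of the 20953 events tested. The NOP56 exon of 138 nt, in a core protein of box C/D snoRNPs, was at 99.9%, 99.9% and 100% in untreated depleted, 99.4%, 99.6% and 99.6% in treated control and 93.9%, 95.4% and 90.3% in treated depleted libraries. Treated depleted libraries were the lowest, with a difference of -6.71 points against untreated depleted cells (adjusted p = 7.77e-41 in edgeR, 6.75e-09 in DESeq2 and 0.00142 in limma) and -6.33 points against treated control cells (adjusted p = 8.76e-19 in edgeR, 0.000120 in DESeq2 and 0.0117 in limma). The NOP16 exon of 87 nt, a noncoding exon of a gene of ribosome biogenesis, was at 99.7%, 99.0% and 99.4% in untreated depleted, 99.4%, 98.4% and 98.6% in treated control and 89.9%, 90.5% and 80.7% in treated depleted libraries, again the lowest. The TFAM exon of 96 nt, in the packaging protein of mitochondrial DNA, was at 100%, 100% and 100% in untreated and 92.9%, 97.8% and 86.7% in treated depleted libraries (adjusted p = 1.08e-07 in edgeR, 0.00960 in DESeq2 and 0.00819 in limma). In all these exons library c of the treated depleted cells was the lowest.

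Of the 47, 7 differed by at least 20 points, in TMBIM6, SAT2, CPEB2, COQ3, BNIP2, LSM14B and PKM. The BNIP2 exon of 93 nt, a noncoding exon of a gene whose protein binds BCL2, was at 7.23%, 2.92% and 6.45% in untreated and 34.1%, 36.3% and 64.5% in treated depleted libraries, higher in all 3 with library c the highest (39.5 points; adjusted p = 4.64e-05 in edgeR, 0.00306 in DESeq2 and 0.0190 in limma). The LSM14B exon of 117 nt, in an mRNA-binding protein of the LSM family, was at 53.8%, 56.6% and 45.2% in untreated and 91.0%, 91.7% and 95.4% in treated depleted libraries, a rise of 40.8 points (adjusted p = 0.000938 in edgeR, 0.0294 in DESeq2 and 0.0180 in limma). The CPEB2 exon of 90 nt, in a regulator of cytoplasmic polyadenylation and translation, rose from 3.31%, 7.17% and 3.88% to 31.5%, 25.0% and 39.2%, by 27.1 points (adjusted p = 8.24e-05 in edgeR, 0.00842 in DESeq2 and 0.0238 in limma). The 102-nt coding exon of SAT2 went from 98.8%, 96.0% and 100% to 77.3%, 79.1% and 64.9%, lower in every treated library (adjusted p = 4.43e-07 in edgeR, 0.0173 in DESeq2 and 0.0137 in limma).

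Several exons that rose with Cisplatin had the letters GAGACAG directly before the exon, as the CENPL exon did. These letters end the 3′ splice site of many exons made from inverted Alu repeats, a family of primate retrotransposons. They were searched only at that place and on the strand of the gene, and were chosen after the splice sites of called exons had been seen. The windows of 5 such exons are shown (GRCh37), with the 20 intron bases and 3 exon bases, because they rose in depleted or control cells; capitals mark GAGACAG.
CENPL, chr1:173775577-173775714, minus strand: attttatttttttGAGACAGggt
PRMT7, chr16:68345945-68346079, plus strand: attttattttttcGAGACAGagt
TAF6, chr7:99716141-99716272, minus strand: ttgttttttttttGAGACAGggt
C6orf48, chr6:31804076-31804294, plus strand: ctattttgtttttGAGACAGggc
PDCD6, chr5:313816-313965, plus strand: cttcttctttcttGAGACAGacc

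GAGACAG stood before the exon in 86 of 30080 frame-preserving events (0.286%) and in 0.382% of frame-shifting events of the same lengths. Among events that rose with Cisplatin it was found in 4 of 52 in control cells (7.69%) and 8 of 180 in depleted cells (4.44%), and among events that fell in 0 of 15 and 0 of 210. Events that started under 10%, where most rises came from, held it in 2.57% and 2.95% in the 2 comparisons, and the shares are descriptions without a test. The TAF6 exon of 132 nt, in an untranslated region of the gene of a TFIID subunit, rose from 14.9% ± 2.05 to 39.2% ± 1.93 (SD, n = 3) in depleted cells (adjusted p = 1.36e-05). The C6orf48 exon of 219 nt rose from 9.29% ± 0.822 to 20.7% ± 1.07 (SD, n = 3) in control and from 13.6% ± 1.25 to 23.8% ± 2.00 (SD, n = 3) in depleted cells (adjusted p = 0.00584 and 0.00305). PDCD6, a calcium-binding protein, had a 150-nt exon of decay transcripts that rose from 2.09% ± 0.334 to 6.19% ± 1.21 (SD, n = 3) in control and from 1.72% ± 0.167 to 9.38% ± 2.08 (SD, n = 3) in depleted cells (adjusted p = 0.00120 and 5.28e-16). No exon with these letters was called in edgeR for depletion in untreated cells, and 1 was for depletion with Cisplatin, in DTYMK, the gene of thymidylate kinase.

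Some genes were described whatever their values: SAT1, NOXA1, MCL1, RNF8 and genes of the spliceosome. Frame-preserving cassette events with enough reads were found in SAT1 (5 events), NOXA1 (1), RNF8 (12), SF3B1 (4), SF3B2 (4) and SNRNP70 (6), and none in MCL1. SAT1 encodes spermidine acetyltransferase, and all its 5 events had mean levels of 98.7% to 100%. A SAT1 event of 84 nt was at 99.0%, 99.1% and 98.0% in untreated and 99.8%, 99.9% and 99.8% in treated depleted libraries (adjusted p = 0.0133), and an event of 102 nt fell by 0.255 points upon depletion with Cisplatin (adjusted p = 0.00519). The NOXA1 exon of 108 nt, in an activator of NADPH oxidase, was at 100%, 80.5% and 100% in untreated control, 90.2%, 100% and 100% in treated control, 70.6%, 100% and 84.8% in untreated depleted and 92.8%, 84.4% and 100% in treated depleted libraries, and levels overlapped between conditions. It had enough reads for a test only for depletion with Cisplatin, as 1 untreated control and 2 untreated depleted libraries held 11, 14 and 15 reads. No event of NOXA1, RNF8, SF3B1 or SF3B2 was called in edgeR in the comparisons in which it was tested, where the lowest adjusted p was 0.0996, and those of SNRNP70 are given above. The study's own SAT1 result concerned an exon with a premature stop codon, and its NOXA1 and RNF8 results concerned retained introns. Those are not among the events described here, which do not bear on them.

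The expression of the genes that hold the called exons was compared from gene counts. With at least a 2-fold change and an adjusted p under 0.05, the calls were 8 of 62 such genes for Cisplatin in control cells (12.9%; background of all genes 19.8%), 23 of 319 in depleted cells (7.21%; background 23.1%), 1 of 20 for depletion in untreated cells (5.00%; background 8.66%) and 2 of 123 in treated cells (1.63%; background 12.3%). The host genes of all frame-preserving exons tested were called in 10.5%, 12.1%, 2.62% and 3.25%. The median log2 fold change was -0.18, 0.06, -0.06 and 0.04 for the genes with called exons. Without a limit on the fold change, the host genes of 4 of 10 named exons passed for Cisplatin in control cells, all lower: DAG1, ECT2, MPRIP and KTN1 (log2 fold change -0.79, -0.51, -0.97 and -0.54, adjusted p = 2.09e-05, 0.000767, 0.000681 and 7.66e-05). For Cisplatin in depleted cells those of 8 of 16 passed. Besides BIRC5 and APAF1, given above, these were higher in PXN, RBM4B, FYB, LSR and ACIN1 (log2 fold change 0.78, 0.27, 0.61, 0.48 and 0.81, adjusted p = 0.0125, 0.0113, 0.000983, 0.0482 and 0.000121) and lower in LGALS8 (log2 fold change -0.25, adjusted p = 0.00589). Upon depletion, 1 of 10 passed in untreated cells, ZRANB2 (log2 fold change 0.34, adjusted p = 0.0257), and 2 of 10 in treated cells, ZDHHC7 and TSSC4 (log2 fold change 0.31 and 0.76, adjusted p = 0.00322 and 0.000991). The host genes of the other named exons, among them PPIP5K2, TJP1 and TMBIM6, did not pass. The share of all genes that passed without the limit is not given, so these counts describe the named genes only.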

How the data were processed

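RNA was sequenced from 12 A549 libraries, 3 biological replicates in each of 4 conditions. The authors discarded reads from rRNA, tRNA and mitochondrial RNA, cut reads to 73 nt, aligned them to hg19 with STAR (version 2.5.2b) and deposited raw counts of read pairs per gene. They ran rMATS (version 3.2.5) with the Ensembl annotation of GRCh37 (release 75), and the deposited table of skipped exons holds, per event and library, whole numbers of inclusion and skipping reads on junctions and on the target exon. Its p-values, false discovery rates and inclusion levels of the authors' own comparisons were not used, and other classes of splicing events were not analysed here. Reads on a cassette exon are shared by its events.

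Inclusion and skipping reads were fitted with edgeR's quasi-likelihood test (edgeR 4.0.16, R 4.3.3), with a term per library and form, for every event with at least 20 reads in each library, and p-values were adjusted by Benjamini and Hochberg over all of them. Members were called at an adjusted p under 0.05, with differences of at least 20 or 10 points counted beside. Genes were tested with edgeR and TMM scaling in 1 fit, and called with at least a 2-fold change at an adjusted p under 0.05. Named exons had an adjusted p under 0.05, at least 50 reads in each library and no overlap between groups. Only 1 event per group of overlapping exons of a gene was kept, that with the most reads. The 5 largest rises and 5 largest falls per comparison were named (3 and 3 for the interaction). Called members of the gene lists and every event of SAT1, NOXA1, MCL1, RNF8, SF3B1, SF3B2 and SNRNP70 were added; 1 further gene of that rule is not reported here. The members and lists were chosen with earlier results of these data known. Exons outside the rule are PKM, those called by every test and those with GAGACAG, all chosen after their values were seen.

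Exon classes come from Gencode (release 44 lifted to GRCh37): wholly coding means inside the coding sequence of at least 1 protein-coding transcript; the planned release 19 held no coding regions. Alternatives were DESeq2 (version 1.42.0), limma (version 3.58.1) on log2 ratios with a pseudocount of 0.5, TMM scaling, other read minimums, 1 fit over 12 libraries, inclusion without division by length, a replicate block for genes and the omission of each library. The fits were tested on simulated data. For gene expression, replicates with the same number deviated together for Cisplatin in control cells (r of 0.632, 0.731 and 0.48 over 9779 genes), which treats the numbers as pairs there. The splicing table does not name its libraries, so no pairing could be used for exons. With 20 reads an inclusion level is coarse, and a p-value covers the spread among 3 libraries.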

Additional observations from a re-analysis of the deposited data

Results flagged for a closer look

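For 2 frame-preserving exons the effect of Cisplatin differed between RNF113A-depleted and control cells by the test of the interaction in edgeR (adjusted p under 0.05). The 72-nt exon of ATP5H (chr17:73036187-73036258, minus strand) changed by -4.73 points in depleted and -0.298 points in control cells, a difference of -4.433 points (adjusted p = 0.0248). The 96-nt exon of ANXA1 (chr9:75781013-75781108, plus strand) changed by -2.14 points in depleted and -0.0333 points in control cells, a difference of -2.106 points (adjusted p = 0.00393). With DESeq2 neither passed (adjusted p = 1.00 for each), and omission of 1 of the 12 libraries gave adjusted p-values of up to 0.758 and 0.509.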

How the results depend on the processing

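Counts of exons called at an adjusted p under 0.05 and 20 points were 7, 46, 3 and 12 for Cisplatin in control cells, Cisplatin in depleted cells, depletion in untreated cells and depletion in Cisplatin-treated cells. In that order, a limit of 10 points gave 28, 144, 6 and 28, and no limit 67, 390, 25 and 153. DESeq2 gave 1, 11, 0 and 1 and limma 0, 10, 0 and 2 at 20 points (3, 58, 0 and 12 and 0, 228, 0 and 150 without a limit). A fit over all 12 libraries gave 16, 47, 6 and 12. A minimum of 50 reads gave 7, 30, 4 and 9, and TMM scaling 7, 45, 5 and 11. TMM moved the share of higher calls without a limit from 56.0% to 68.0% for depletion in untreated cells and from 18.3% to 34.9% in treated cells, and that at 20 points from 57.1% to 42.9% for Cisplatin in control cells. The interaction had 0 calls and 2 without a limit. Median inclusion without division by length was 99.71%, 99.74%, 99.65% and 99.65%.

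Omission of 1 library gave 2 to 7 calls (7 without shControl untreated library b), 23 to 39 (without shRNF113A + cisplatin library c), 0 to 3 (without shRNF113A untreated library b or c) and 4 to 10 (without shRNF113A + cisplatin library a), and 0 to 0 for the interaction. Of 276 such fits of named exons, 105 kept the call. Host genes called ranged over 8 to 9, 17 to 24, 1 to 1 and 2 to 2. The log2 fold change of RNF113A ranged over 0.52 to 0.62, 0.65 to 0.78, -0.35 to -0.28 and -0.24 to -0.13, and upon depletion in untreated cells it missed the threshold in 4 of these fits (adjusted p = 0.0680, 0.0563, 0.0940 and 0.0770). With a replicate block, 8, 23, 1 and 2 host genes were called, as without it, and the block changed no call of RNF113A (log2 fold change -0.31 upon depletion in untreated cells, adjusted p = 0.0307). In the other comparisons same-numbered replicates did not all deviate together (r of 0.406, -0.065 and 0.299 for Cisplatin in depleted cells and -0.2 to 0.135 upon depletion). No paired analysis was possible for exons because the table does not name the order of its libraries. No named exon and no fold change of RNF113A changed sign under the alternatives run, whereas the majority of the calls at 20 points for Cisplatin in control cells turned from higher to lower under TMM, as given above. The causes of the differences between tools were not tested.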
